A study of Mus musculus with 153 samples.

Results

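The core circadian clock genes of mouse tail skin are described here across 151 mice of an Hras backcross: the activators Arntl (also called Bmal1), Clock and Npas2, the period genes Per1, Per2 and Per3, the repressors Nr1d1 and Nr1d2 (Rev-erb alpha and beta), and the output factors Dbp and Hlf. Each was read from the deposited log2 expression values of the probe set with the highest mean among those annotated with that symbol alone. By this rule 8 of the 10 genes were measured, of 18810 genes in all. Dbp and Nr1d1 had only probe sets annotated to several genes and get no value here.

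The skin comes from a cross of male Mus spretus with female FVB/N mice that lack Hras, a small GTPase of the Ras family. Their daughters were mated to FVB/N males that were Hras -/- or Hras -/+, and the series holds the Hras +/+ offspring (WT) and the Hras +/- offspring (HET). All mice were untreated and 8 weeks old, and total RNA of snap-frozen tail skin was hybridised to Affymetrix arrays on 3 plates. Of the 151 mice 37 were HET and all others WT, 81 were male and 70 female, and plates 1, 2 and 3 held 49, 46 and 56, of which 9, 10 and 18 were HET. A further 2 arrays carry the submitters' outlier label and were left out. Every mouse carries its own mixture of FVB/N and Mus spretus alleles, so a difference between genotypes cannot be told apart from one of alleles linked to Hras, and the effect of Mus spretus sequence on probe binding was not tested. The labels used here give no time of day at which skin was taken.

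The clock is a loop of transcription. ARNTL pairs with CLOCK or with its relative NPAS2 and binds E-box sequences of the period and cryptochrome genes, whose proteins in turn repress that pair. The same pair switches on Nr1d1 and Nr1d2, which repress Arntl and Npas2 through ROR elements, and Dbp, which acts with Hlf and Tef on D-box sequences, where Nfil3 represses. Skin has such a clock in keratinocytes, fibroblasts and hair follicles, and in a tissue with a running clock Arntl and Npas2 peak at about the opposite time of day from the period and Rev-erb genes.

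Sequences from the promoters of clock genes are shown to place the binding letters of this loop beside the genes whose levels are given below. Each is a piece of RefSeq's promoter table (mouse assembly GRCm38.p6), written 5′ to 3′ on the gene's strand, from the 250 bases before the start of the transcript, with capitals marking the motif. The searched letters were CACGTG (E-box), CACGTT (E-prime box), TTANGTAA (D-box), TAGGTCA (ROR element) and TGACGTCA (cyclic AMP response element, CRE) on both strands; no stretch was counted as both kinds of E-box.
Per1: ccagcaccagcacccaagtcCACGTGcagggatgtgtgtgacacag
Cry1: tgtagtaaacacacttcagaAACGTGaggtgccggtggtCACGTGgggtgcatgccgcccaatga
Cry2: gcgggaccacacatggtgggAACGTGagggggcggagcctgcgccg
Ciart: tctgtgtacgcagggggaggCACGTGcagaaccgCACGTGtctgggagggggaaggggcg
Tef: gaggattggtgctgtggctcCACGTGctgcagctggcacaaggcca
Per3: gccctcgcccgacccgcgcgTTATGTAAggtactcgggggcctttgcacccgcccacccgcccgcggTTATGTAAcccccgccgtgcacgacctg
Hlf: tcggcgcgcggtgcgggcccTGACGTCAc

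The Per1 piece is chr11:69098763-69098808 on the + strand and holds 1 E-box, which begins 166 bases before the start. The Cry1 piece (chr10:85185089-85185153, - strand) holds an E-prime box and an E-box, and the Cry2 piece (chr2:92434210-92434255, - strand) an E-prime box. The Ciart piece (chr3:95882247-95882306, - strand) holds 2 E-boxes, and another lies farther from its start. The Tef piece (chr15:81802526-81802571, + strand) holds 1 E-box. The Per3 piece (chr4:151044796-151044890, - strand) holds 2 D-boxes of identical letters, which begin 205 and 158 bases before the start, and the Hlf piece (chr11:90390918-90390946, - strand) ends at a CRE. RefSeq's table held 9 of the 10 clock genes, all but Per2. None of the 5 motifs was found in the windows of Arntl, Clock, Npas2, Dbp or Nr1d2, nor in a second window of Per1. The window of Nr1d1, not printed, held 1 E-prime box, which begins 28 bases before the start. Of all 32851 promoters in the table, 6.02% held an E-box, 3.85% an E-prime box, 2.06% a D-box, 2.23% a ROR element and 1.55% a CRE. These matches describe letters, not bound sites.

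Among the activators, Arntl ran from 6.57 to 7.70 log2 units over the 151 mice with a median of 7.16 (mean 7.16 ± 0.23 SD), a 2.19-fold range. Npas2 ranged more widely, from 6.44 to 8.04 with a median of 7.19 (mean 7.19 ± 0.32 SD), 3.03-fold. Clock, the partner whose transcript cycles weakly in most tissues, lay between 7.96 and 8.74 with a median of 8.35 (mean 8.36 ± 0.14 SD), 1.71-fold. After removing plate, sex and genotype, the residual SD of Clock was 0.14, and 90.1% of all genes varied at least as much between mice, against a median SD of 0.22 over all genes.

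The period genes Per1 and Per2, whose proteins repress the activators, varied most of the 8. Per1 ran from 6.42 to 9.11 with a median of 7.87 (mean 7.88 ± 0.52 SD), a 6.44-fold range. Per2 ran from 5.09 to 7.65 with a median of 6.34 (mean 6.39 ± 0.54 SD), a 5.90-fold range. Their residual SDs of 0.51 and 0.54 were reached by 2.92% and 2.42% of all genes. Per3, a period gene that is dispensable for rhythm in most tissues, ran from 6.55 to 7.82 with a median of 7.28 (mean 7.26 ± 0.27 SD), 2.42-fold. The Rev-erb gene Nr1d2 ran from 7.08 to 8.11 with a median of 7.68 (mean 7.66 ± 0.21 SD), 2.04-fold. Hlf, a D-box factor of the same family as Dbp and Tef, ran from 6.96 to 8.53 with a median of 7.84 (mean 7.83 ± 0.31 SD), 2.97-fold. Levels are not ranked between genes, because each probe set has its own brightness.

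Single mice at the ends of these ranges show several genes shifted at once. A female HET mouse of plate 3 had both the highest Per2 (7.65) and the lowest Npas2 (6.44) of all mice, with Arntl at 6.62, Per1 at 8.71 and Per3 at 7.73. The male WT mouse of plate 3 with the lowest Per2 (5.09) had Npas2 at 7.92, Arntl at 7.50 and Per3 at 6.63. A female WT mouse of plate 1 had both the highest Per1 (9.11) and the highest Nr1d2 (8.11), with Arntl at 6.74. The opposite arrangement did not hold in every mouse, since the male WT mouse of plate 1 with the highest Npas2 (8.04) also had a high Per1 (8.72).

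Markers of the expected tissue were bright: mean levels of 5 basal keratinocyte genes lay between 9.21 and 11.8 log2 units, of 4 differentiated keratinocyte genes between 8.83 and 12.2, and of 6 dermal fibroblast genes between 7.40 and 11.2. Each array's lower quartile, as a guide to dim probe sets, lay between 3.02 and 3.20. Skeletal muscle genes varied widely, their summed level running from 6.45 to 10.9, and hair shaft genes from 10.8 to 13.9. In whole tissue, fewer cells of a type and less RNA per cell cannot be told apart.

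No clock gene passed the test between Hras genotypes. Differences were fitted with limma, with plate, sex and genotype as terms, and a gene was called at a Benjamini-Hochberg adjusted p under 0.05 over all 18810 genes. Of the 8 clock genes, 0 were called between HET and WT, where 0.112% of all genes (21) were, and 0 of the 8 reached an unadjusted p under 0.05, which 1235 of all genes did. Per1 averaged 7.91 ± 0.54 (SD) in the WT and 7.77 ± 0.44 (SD, n = 37) in the HET mice, a fitted difference of -0.15 ± 0.10 (SE; 95% interval -0.34 to 0.040; adjusted p = 0.84). WT mice ran from 6.42 to 9.11 and HET mice from 6.95 to 8.71, so the HET values lay inside the WT range. Per2 differed by -0.13 ± 0.10 (SE; interval -0.33 to 0.074; adjusted p = 0.90), with WT mice between 5.09 and 7.58 and HET mice between 5.34 and 7.65. Arntl (0.054 ± 0.044 SE, interval -0.034 to 0.14), Npas2 (0.052 ± 0.061, interval -0.068 to 0.17) and Per3 (0.052 ± 0.050, interval -0.047 to 0.15) had small positive differences. Arntl lies on chromosome 7, and the part of alleles linked to Hras in its difference, overall and by plate, was not tested. Clock, Nr1d2 and Hlf differed by 0.020, 0.026 and 0.026. The scores of the hair shaft list were 0.082 in WT and -0.25 in HET mice on average (SD units over all mice). Immediate early genes, which went with Per1 and Per2 as given below, had mean scores of 0.078 and -0.24, with 0 of 9 genes above 0 in HET minus WT, 0 called and 3 at an unadjusted p under 0.05. Glucocorticoid response genes had 0.043 and -0.13. The part of these 2 response lists in the genotype differences was not tested. With scores of muscle, adipocyte, fibroblast and hair genes as covariates the difference was -0.24 for Per1 (adjusted p = 0.56) and -0.19 for Per2 (adjusted p = 0.78), with 0 of the 8 called.

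**Figure D1:**
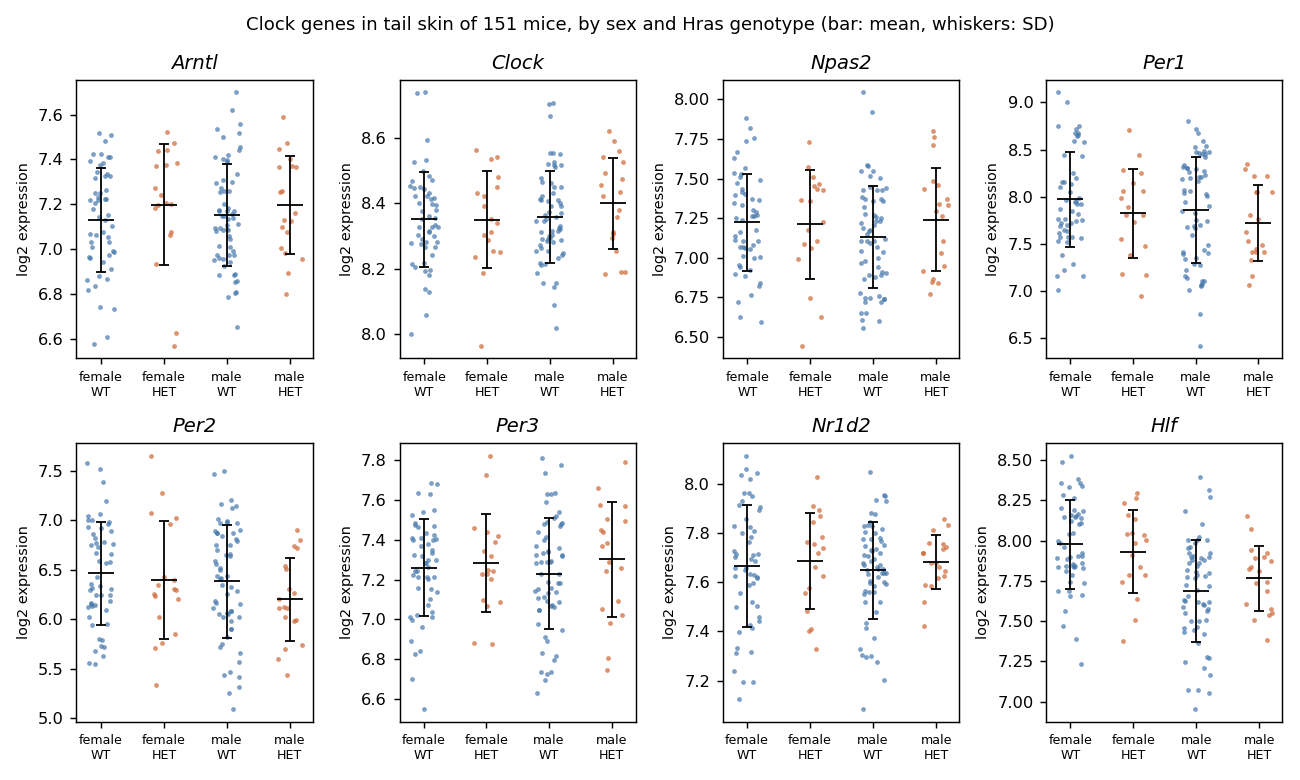
Log2 expression (y axis) of the 8 measured clock genes in each of the 151 mice, split by sex and Hras genotype (x axis; blue WT, orange HET). Each point is a mouse, bars are means and whiskers SD. The 4 groups overlap for every gene, and Hlf lies higher in females (mean 7.97) than in males (mean 7.71).

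Within plates the genotype differences of Per1, Per2, Arntl and Per3 spread around these values. On plate 1, with 9 HET and 40 WT mice, Per1 averaged 7.45 ± 0.46 (SD) in HET and 7.88 ± 0.53 (SD) in WT mice, and Per2 averaged 6.06 ± 0.35 (SD) and 6.48 ± 0.54 (SD). The fitted differences there were -0.41 ± 0.18 (SE) for Per1, -0.41 ± 0.18 for Per2 and 0.22 ± 0.082 for Arntl. On plate 2 the same differences were -0.14, -0.18 and 0.075, and on plate 3 they were 0.0038, 0.081 and -0.064. For Per3 they were -0.070, -0.057 and 0.20 ± 0.078 (SE) on plates 1, 2 and 3. The limma test of genotype by plate gave unadjusted p = 0.027 for Arntl and 0.035 for Per3, with adjusted p = 0.47 and 0.50. These SEs and tests take mice as independent, but mice close in label number were alike in several clock genes, as given below. HET mice were spread unevenly along the numbers. None was HET from 1454 to 1495 on plate 1 (median Per1 7.99, plate 7.76) or from 1801 to 1834 on plate 3 (median Per3 7.02, plate 7.28). The part of this in the genotype differences was not tested. That test called 0 of the 8 genes and 0% of all genes, where 2 of the 8 and 1706 of all genes had an unadjusted p under 0.05. The genotype by sex test also called 0 of 8 and 0% of all genes, with 0 of the 8 and 895 of all genes at an unadjusted p under 0.05.

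Hlf was the clock gene called between the sexes, with higher levels in females. In females Hlf ran from 7.23 to 8.53 with a median of 7.97 (mean 7.97 ± 0.27 SD, n = 70), and in males from 6.96 to 8.40 with a median of 7.74 (mean 7.71 ± 0.30 SD, n = 81). The ranges overlapped over most of their length. The limma difference, male minus female, was -0.26 ± 0.046 (SE; 95% interval -0.35 to -0.17; adjusted p = 2.7e-05), which is 1.20-fold higher in females. It was -0.28, -0.26 and -0.24 on plates 1, 2 and 3. So 1 of 8 clock genes was called for sex, where 3.62% of all genes were called in either direction and 2.51% were lower in males. The other 7 had differences between -0.11 (Per2, interval -0.28 to 0.065) and 0.019 (Clock, interval -0.028 to 0.065), and 0 of them reached an unadjusted p under 0.05. Whether Hlf differs in this from the other clock genes was not tested. The sex by plate test called 0 of 8 and 0% of all genes, with 0 of the 8 and 1079 of all genes at an unadjusted p under 0.05.

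Marker genes of several cell types also differed between the sexes. A list of 8 genes of the hair shaft and its inner root sheath had a mean score of 0.21 in females (range -1.92 to 2.32) and -0.18 in males (range -2.22 to 1.95), and 2 of its 8 genes were called lower in males. Mast cell genes had mean scores of 0.27 in females and -0.23 in males with 3 of 5 genes called lower in males, and adipocyte genes 0.21 and -0.18 with 2 of 5 lower. Among 6 dermal fibroblast genes, males had 3 called above females and 1 below, and among 5 sebaceous gland genes 2 and 1. The part of the mast cell and sebaceous gland lists in the sex difference of Hlf was not tested. The summed level of the hair genes ran from 10.97 to 13.85 in females and from 10.82 to 13.79 in males. Hlf was lower in mice with higher hair scores, as given below, and with the hair score as a covariate, a fit added after seeing the data, the sex difference of Hlf was -0.34 (adjusted p = 5.6e-12). With muscle, adipocyte, fibroblast and hair scores together it was -0.33 (adjusted p = 2.6e-10).

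Plates did not differ in clock gene level: 0 of the 8 were called by limma's F test over the 3 plates, against 0.0213% of all genes (4), and 0 of the 8 against 152 of all genes had an unadjusted p under 0.05. Per1, the gene with the largest F of the 8, averaged 7.80, 7.96 and 7.88 on plates 1, 2 and 3 with SDs of 0.54, 0.49 and 0.51.

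Across mice Arntl and Npas2 varied together, and both varied opposite to Per3. Arntl was also called opposite to Nr1d2, and Npas2 opposite to Per2. All values in this comparison are residuals after plate, sex and genotype, correlated over 151 mice, with the adjusted p of a limma fit that has the first-named gene as a covariate and runs over the other 18809 genes. Arntl and Npas2 went together at r = 0.63 (rho = 0.60, permutation p = 1e-05 each, the smallest that 100000 draws can give; adjusted p = 1.1e-13). Arntl was lower where Nr1d2 was higher (r = -0.33, rho = -0.29, permutation p = 2e-05 and 0.00025, adjusted p = 0.017) and where Per3 was higher (r = -0.30, rho = -0.28, permutation p = 0.00015 and 0.00045, adjusted p = 0.028). Npas2 showed the same sign with Per3 (r = -0.37, rho = -0.34, permutation p = 1e-05 each, adjusted p = 6.2e-04) and with Per2 (r = -0.25, rho = -0.20, permutation p = 0.0019 and 0.016, adjusted p = 0.035). Leaving out the 2 mice whose first-named gene lay farthest from its median, these 5 values were 0.60, -0.31, -0.28, -0.37 and -0.23.

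Taken by its own fit, Arntl called 3 of the 7 other clock genes, where it called 0.930% of all genes (175): Npas2 in the same direction, Per3 and Nr1d2 in the opposite one. With each array centred on its median 4 of the 7 were called, Clock as well, where 6.49% of all genes (1220) were. The fitted slope of Npas2 was 0.87 ± 0.088 (SE) log2 units per unit of Arntl, that of Per3 -0.34 ± 0.089 and that of Nr1d2 -0.29 ± 0.069. Per2 (r = -0.19, adjusted p = 0.25) and Per1 (r = -0.069, adjusted p = 0.77) did not pass. Tests of whether the slopes on Arntl differed by plate, sex or genotype called 0 of 7 and 0% of all genes each. At an unadjusted p under 0.05 they gave 0, 1 (Nr1d2) and 1 (Per2) of the 7, and 945, 1123 and 1323 of all genes. Most of these calls were lost in parts of the data: 1 of 7 was called among males alone and on each plate alone, and 2 of 7 among females alone. Arntl with Nr1d2 was -0.13 in the 81 males and -0.51 in the 70 females, and -0.45, -0.39 and -0.18 on plates 1, 2 and 3 (slope by sex, limma: unadjusted p = 0.0063, adjusted p = 0.83). Arntl with Per3 was -0.20 in males and -0.43 in females, and -0.23, -0.36 and -0.24 by plate. Arntl with Npas2 was 0.63 in males and 0.66 in females.

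The repressors and Hlf varied together. With the activators Hlf was not negative: it lay at r = 0.12 with Arntl and 0.15 with Npas2, neither called, and was called positive with Clock, as given below. Per1 and Per2 had r = 0.75 (rho = 0.75, permutation p = 1e-05 each, adjusted p = 2.5e-24), and on plates 1, 2 and 3 the value was 0.77, 0.81 and 0.66. Per3 and Nr1d2 had r = 0.60 (rho = 0.60, permutation p = 1e-05 each, adjusted p = 8.1e-12; 0.55, 0.64 and 0.62 by plate). Per1 with Nr1d2 gave r = 0.56, Per3 with Hlf 0.56, Per1 with Hlf 0.54, Nr1d2 with Hlf 0.52 and Per2 with Hlf 0.51. Per2 with Per3 gave 0.44, Per1 with Per3 0.42 and Per2 with Nr1d2 0.41. All 10 pairs among Per1, Per2, Per3, Nr1d2 and Hlf were positive and called, with adjusted p of 3.0e-05 or less.

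In all, 17 of the 28 pairs were called, 13 positive and 4 negative. The share of all genes called with each clock gene was 0.930% for Arntl, 10.1% for Clock, 6.60% for Npas2, 17.1% for Per1, 12.2% for Per2, 10.4% for Per3, 4.37% for Nr1d2 and 20.5% for Hlf. The first principal component of the 8 genes held 41.1% of their variance, with loadings between 0.39 and 0.44 for Per1, Per2, Per3, Nr1d2 and Hlf and of -0.19 for both Arntl and Npas2. The second held 24.4% and was led by Npas2 (0.57), Arntl (0.55) and Clock (0.44), followed by Hlf (0.35).

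**Figure D2:**
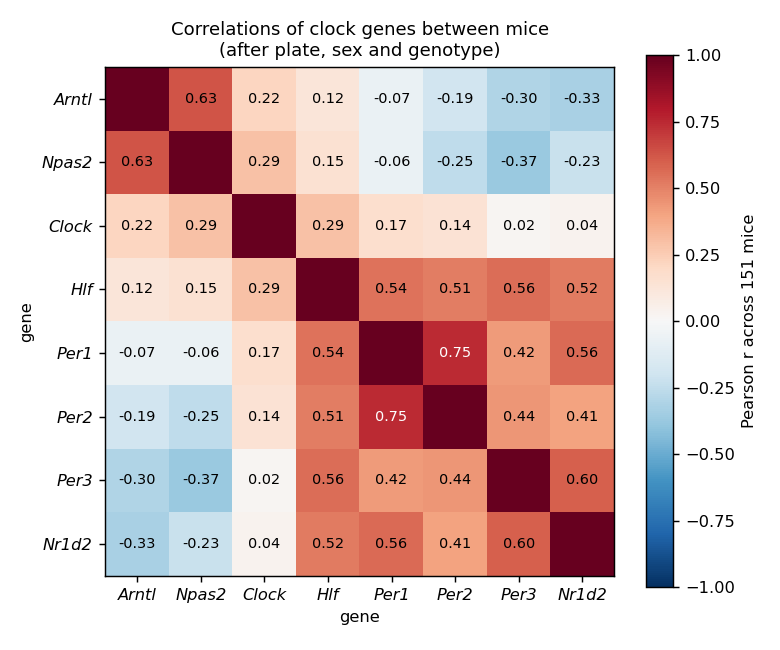
Pearson r across 151 mice for each pair of the 8 clock genes (both axes), after removing plate, sex and genotype; red is positive and blue negative. The block of Hlf, Per1, Per2, Per3 and Nr1d2 is positive throughout, and Arntl and Npas2 are negative with Per2, Per3 and Nr1d2.

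Clock, the partner of Arntl, was called with 2 of the 7 others. It went with Npas2 (r = 0.29, rho = 0.32, permutation p = 0.00028 and 6e-05, adjusted p = 0.0065) and with Hlf (r = 0.29, rho = 0.30, permutation p = 0.00023 and 0.0002, adjusted p = 0.0065). With Arntl it reached r = 0.22 and did not pass (adjusted p = 0.18), and with Per3 and Nr1d2 it lay at 0.019 and 0.036. The value with Npas2 was 0.35 and 0.64 on plates 1 and 2 and -0.0077 on plate 3. The value with Hlf was 0.31, 0.30 and 0.28 on the 3 plates, but -0.036 once scores of muscle, adipocyte, fibroblast and hair shaft genes were covariates.

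Mice that stood close together in label number had alike levels of Per1 and Per2. The labels number the mice, and within a plate each was paired with the next in number, giving 148 pairs of neighbours; what the numbers stand for is not stated. For Per2 the residuals of neighbours correlated at r = 0.55, and for Per1 at r = 0.51 (permutation p of the order within plates = 1e-05 for both, the smallest possible). The median over all genes was 0.058, and Per2 ranked 3 and Per1 ranked 8 of 18810 genes. Per3 reached 0.33 (permutation p = 6e-05) and Nr1d2 0.28 (permutation p = 7.8e-04). By Pearson's test adjusted over all genes these 4 of 8 were called (adjusted p = 2.4e-09 for Per2, 1.0e-07 for Per1, 0.0018 for Per3 and 0.014 for Nr1d2), where 9.12% of all genes were called. Arntl (0.22, adjusted p = 0.073), Npas2 (0.19, adjusted p = 0.14), Hlf (0.063) and Clock (-0.065) were not.

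For both period genes the likeness became smaller with distance in number. For Per2 it was 0.48, 0.36, 0.30, 0.20 and 0.17 at 2 to 6 places apart, and for Per1 0.35, 0.32, 0.20, 0.18 and 0.077. Among the 57 neighbour pairs with consecutive numbers, r was 0.72 for Per2, 0.70 for Per1, 0.47 for Nr1d2, 0.42 for Npas2, 0.39 for Per3 and 0.38 for Arntl, against 0.15 for Hlf and -0.080 for Clock. Neighbours differed by 0.39 log2 units in Per2 on average and by 0.38 in Per1, where any 2 mice of a plate differed by 0.61 and 0.58.

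**Figure D3:**
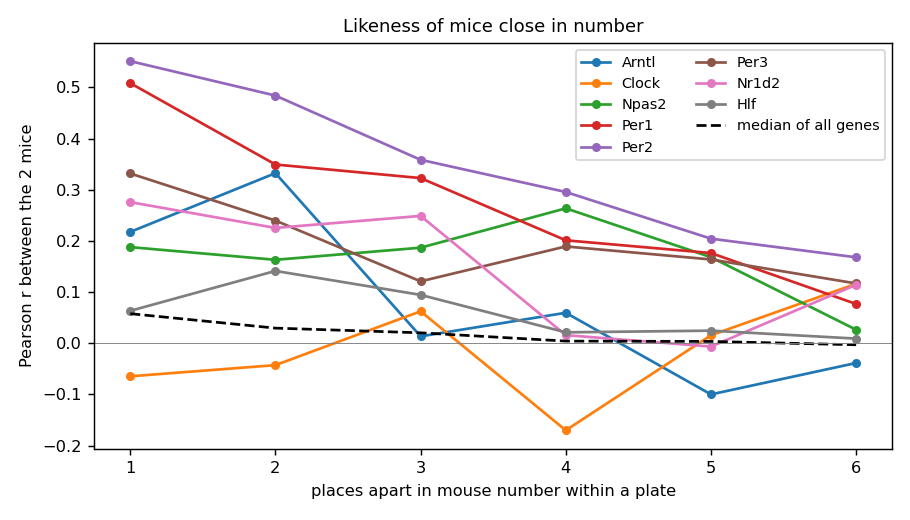
Pearson r (y axis) between the residuals of 2 mice of a plate that stand 1 to 6 places apart in mouse number (x axis), for the 8 clock genes and, dashed, the median of all genes. Per2 starts at 0.55 and Per1 at 0.51 and both decline with distance, while Clock starts at -0.065.

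The runs are visible in the levels themselves. When the mice of plate 2 were divided by number into 4 consecutive blocks of 11 or 12, Per2 had medians of 6.12, 6.88, 6.82 and 5.98. Mice of the second block lay between 6.02 and 7.47 and those of the last between 5.43 and 6.40. Per1 ran 7.76, 8.29, 8.24 and 7.48 over the same mice. Arntl had medians of 7.16, 7.32, 6.92 and 7.26, lowest in the third block, where Per1 and Per2 were still high and Per3 had its highest median (7.28, 7.24, 7.44 and 7.29). Npas2 had 7.29, 7.44, 6.89 and 6.98, also lowest in the third block but still low in the last, where Arntl was back above its first median. On plate 3, in blocks of 14, Per2 had medians of 6.33, 6.96, 6.42 and 6.12 and Arntl of 7.19, 6.98, 7.29 and 7.12. Plate 1, in blocks of 12 or 13, had Per2 medians of 6.232, 6.589, 6.795 and 6.104 and Arntl medians of 6.972, 7.025, 7.153 and 7.302. Arntl thus rose from block to block there, also over the first 3 blocks, where Per2 rose.

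**Figure D4:**
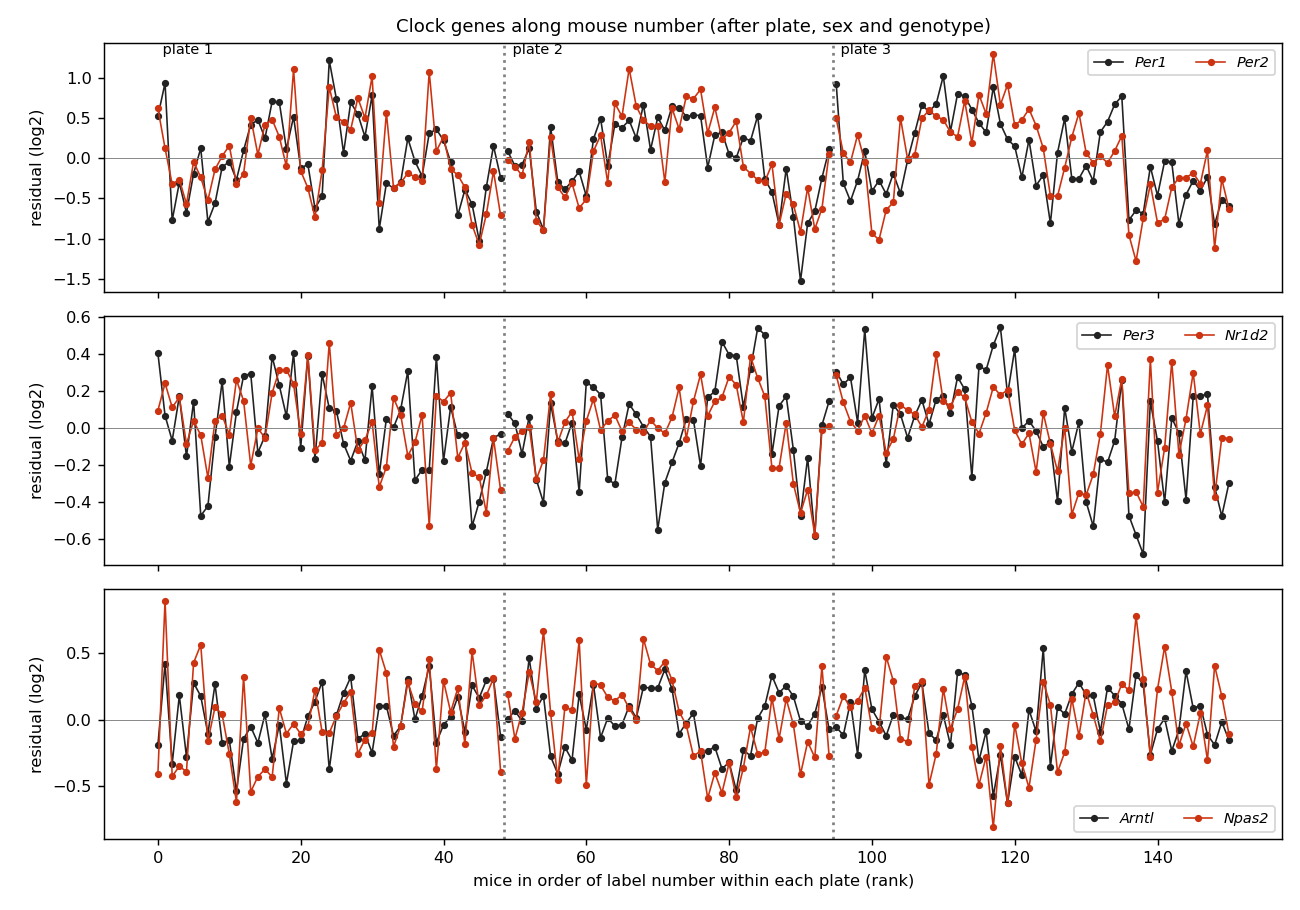
Residual log2 level (y axis) of Per1 and Per2 (top), Per3 and Nr1d2 (middle) and Arntl and Npas2 (bottom) after plate, sex and genotype, for the 151 mice in order of label number within each plate (x axis; dotted lines separate plates). Per1 and Per2 move together in runs of neighbouring mice on plates 2 and 3, and Arntl and Npas2 dip together in plate 2 around mice 1618 to 1684.

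The likeness was not called on every plate, and its difference between plates was not tested. On plate 1 the neighbour correlation was 0.27 for Per2, 0.29 for Per1 and -0.026 for Per3, and 0 of the 8 genes were called there, against 4 on plate 2 and 2 on plate 3. On plate 2 Arntl reached 0.56. In the same tests on single plates, 51, 251 and 41 of all genes were called on plates 1, 2 and 3. Other genes also ran along mouse number over all plates, where 9.12% of all genes were called. Dad1 (0.62) and Psmb2 (0.60) were above Per2, and all 6 dermal fibroblast genes were called (Lum 0.46, Col1a2 0.45), as were 5 of 9 glucocorticoid response genes, among them Dusp1 (0.37). With muscle, adipocyte, fibroblast and hair scores as covariates the values were 0.54 for Per2, 0.49 for Per1, 0.29 for Nr1d2 and 0.24 for Per3 (adjusted p = 0.057), while Arntl reached 0.26 (adjusted p = 0.035). So 4 of the 8 were called there too, with Arntl in place of Per3, where 966 of all 18810 genes were called.

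Because neighbours are alike in several of these genes, the 151 mice are not independent, and p-values of correlations between genes that run along mouse number are too small. For pairs with Clock or Hlf, whose neighbour correlations were -0.065 and 0.063, how far this holds was not tested. The SEs, intervals and p-values given above for genotype and sex also take the mice as independent, and the effect of this on them was not tested. Differences between 2 neighbours, with each mouse used once (75 pairs of mice, an alternative added after seeing the data), leave out what neighbours share. Among those differences 5 of the 28 pairs of genes were called, and the 17 pairs called among all mice kept their sign. In the same fits 0.516% of all genes were called with Arntl, 3.12% with Clock, 1.57% with Npas2, 0.356% with Per1, 0.404% with Per2, 0.0478% with Per3, 0.00532% with Nr1d2 and 6.02% with Hlf. Arntl with Npas2 was 0.58 (adjusted p = 9.2e-04), Per1 with Per2 0.54 (8.5e-04), Per3 with Hlf 0.54 (0.0013), Per3 with Nr1d2 0.52 (0.0073) and Per1 with Hlf 0.46 (0.025), each adjusted p from limma. The negative pairs lay closer to 0 than among all mice: Arntl with Per3 was -0.044, Arntl with Nr1d2 -0.16, Npas2 with Per2 -0.13 and Npas2 with Per3 -0.27, none of them called. The positive pairs called among all mice were each smaller here too. Per2 with Nr1d2 was 0.20 beside 0.41 among all mice, and Nr1d2 with Hlf 0.36 beside 0.52. With 75 differences in place of 151 mice each test is also less sensitive, and the part of this in the lost calls was not tested.

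Cryptochromes and E-box repressors were called with the period genes and not with Arntl; the difference between those correlations was not tested. Cry2, a cryptochrome that represses together with the period proteins, was the gene most like both Per2 (r = 0.82, adjusted p = 6.8e-33) and Per1 (r = 0.80, adjusted p = 1.1e-30) among all genes. Cry1, its relative, reached 0.77 with Per2 and 0.57 with Per1. Ciart, a repressor of the ARNTL pair whose promoter piece is printed above with 2 E-boxes, reached 0.68 with Per1 and 0.60 with Per2. Bhlhe41, an E-box repressor, reached 0.53 and 0.51. With Arntl these 4 lay between -0.12 and 0.13 and 0 of them passed.

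Tef, a D-box activator, was the gene most like Per3 of all genes (r = 0.77, rho = 0.72, adjusted p = 3.9e-26; 0.69, 0.84 and 0.75 by plate). Tef reached 0.57 with Hlf and 0.55 with Nr1d2, and it was lower where Npas2 was higher (r = -0.42, adjusted p = 1.1e-04). The window of Per3 shown above holds 2 D-boxes, those of Hlf and Nr1d2 held none, and Per2 had no window. The part of promoter motifs in any of these correlations was not tested. Nfil3, the D-box repressor, was negative with Per3 (r = -0.33, adjusted p = 0.0019) and with Hlf (r = -0.25, adjusted p = 0.015). With Per1 (r = 0.16) and Per2 (r = 0.15) it was positive and not called.

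Of 18 other clock genes measured, to be read against the shares of all genes given above (17.1% for Per1, 12.2% for Per2, 10.4% for Per3, 4.37% for Nr1d2 and 20.5% for Hlf), 8 were called positive and 1 negative with Per1, 7 and 0 with Per2, 8 and 1 with Per3, 5 and 0 with Nr1d2, and 8 and 4 with Hlf. The counts were 0 and 1 with Arntl (0.930% of all genes), 1 and 2 with Npas2 (6.60%), and 2 and 2 with Clock (10.1%). Median r of the list was 0.16 with Per1 and -0.039 with Arntl, beside -0.017 and 0.0041 over all genes. The gene called with Arntl was Nono (r = -0.39, adjusted p = 0.0025), an RNA- and DNA-binding protein that associates with the period proteins. Clock was called with Rora, an activator at ROR elements (r = 0.40), Cry1 (0.25), Csnk1e, a kinase of the period proteins (-0.39), and Rorb (-0.27). Npas2 was called with Btrc, part of the ligase that degrades period proteins (0.31), with the cell cycle inhibitor Cdkn1a (0.28), with Nono (-0.25) and with Tef. Of 9 clock output genes, 3 positive and 1 negative were called with Per1 (17.1% of all genes) and 3 and 2 with Per2 (12.2%). Wee1, a mitotic inhibitor kinase driven by the clock in liver, reached 0.69 with Per2 and 0.63 with Per1, and Klf9, a Krüppel-like factor that also responds to glucocorticoids, 0.69 with Per1 and 0.59 with Per2.

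By limma 0 of the 18 other clock genes were called for genotype (5 of 18 above 0, median -0.0070, median of all genes -5.9e-05) and 0 for plate, with 2 and 0 of the 18 at an unadjusted p under 0.05. For sex, Cipc, an inhibitor of CLOCK, was lower in males (-0.14 ± 0.027 SE, adjusted p = 1.3e-04), as was Nono (-0.070 ± 0.017, adjusted p = 0.0051). Among the 9 output genes Nampt, the enzyme of NAD salvage, was higher in males (0.16 ± 0.032, adjusted p = 2.4e-04). Along mouse number, where 9.12% of all genes were called, 4 of the 18 were called (Cry2 0.41, Cry1 0.36, Tef 0.32 and Ciart 0.31). So were 4 of the 9 output genes, led by Wee1 (0.36).

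Among all genes, those most like Arntl after Npas2 were Dapk1, a death-associated kinase (r = 0.43), Ssx2ip (0.43), Tpd52l2 (0.42), Fam241b (0.41), Dcaf10 (0.41), Clpx (0.40) and Zdhhc18 (0.40). Most opposite were Dnajc13 (-0.45), the G1 cyclin Ccnd2 (-0.44), Nono, the DNA polymerase subunit Pold1 (-0.37), Ppp1r9b (-0.36), Hnrnpu (-0.35), the G1 cyclin Ccnd1 (-0.35) and the thymidylate kinase Dtymk (-0.35). Npas2 shared with Arntl both Dapk1 (0.53; Mdfic followed at 0.48) and Ccnd2 (-0.58, rho = -0.60, adjusted p = 1.2e-10), and Ccnd2 lay at -0.65, -0.49 and -0.68 by plate. Dsg2 (-0.48) and Mthfd1l (-0.47) were next. Over the 3 plates Dapk1 with Npas2 was 0.64, 0.72 and 0.24.

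Per1 was followed after Cry2 and Per2 by Sik1, a salt-inducible kinase (0.70), and was most opposite to Nabp1 (-0.65), the gap junction gene Gja1 (-0.59) and Rnpep (-0.54). Per2 was also most opposite to Nabp1, a single-stranded DNA binding protein (-0.54), then to Rubcn (-0.54) and Slc25a43 (-0.52). Per3 was most opposite to Terc (-0.47), Hsph1 (-0.45) and Odc1 (-0.45), and Nr1d2 to S100a7a (-0.44), Gja1 (-0.43) and Gjb2 (-0.41). Clock was most like Slmap (0.55), Mal2 (0.53) and Clip1 (0.53) and most opposite to Fhod3 (-0.57), the inner root sheath keratin Krt28 (-0.56) and Sardh (-0.56). Hlf was most like Ppp2r3a (0.66), Hoxa7 (0.65) and Zfp395 (0.65) and most opposite to Slc39a10 (-0.69), Mthfd2 (-0.63) and Padi3 (-0.62). With marker scores as covariates Clock with Krt28 shrank to -0.15 and Hlf with Padi3 to -0.31, whereas Per1 with Cry2 (0.77) and Npas2 with Ccnd2 (-0.58) did not. Per1 and Hlf share chromosome 11, and Npas2 and Per2 share chromosome 1. Of the genes listed as most like or most opposite, Pold1 and Ccnd1 share chromosome 7 with Arntl. Nabp1 shares chromosome 1 with Per2, Clip1 chromosome 5 with Clock and Gjb2 chromosome 14 with Nr1d2. Some mice inherited both loci of such a pair together, and the part of this in the correlations was not tested.

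Response and hair markers moved with several clock genes. Lists of 13 cell types and 2 responses gave 120 relations with the 8 genes, of which 23 were called at a permutation p adjusted over the 120. The score of a list is the mean of its genes' standardised residuals. The glucocorticoid response list (9 genes, among them Fkbp5, Tsc22d3 and Zbtb16; Per1 is itself a known target of the glucocorticoid receptor) had r = 0.69 with Per1 (rho = 0.67, permutation p = 1e-05 each, adjusted p = 1.5e-04) and 0.62, 0.69 and 0.73 by plate. It reached 0.50 with Per2, 0.38 with Hlf, 0.30 with Nr1d2 and 0.24 with Clock. Without the 2 mice at the ends it was 0.66 with Per1. Immediate early genes (Fos, Egr1 and 7 others) reached 0.41 with Per2 and 0.32 with Per1.

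The list of hair shaft genes had a negative r with all 8 clock genes, called with 6 of them. It was -0.57 with Hlf (rho = -0.56, permutation p = 1e-05 each), -0.56 with Clock (rho = -0.56, permutation p = 1e-05 each), -0.46 with Per1, -0.37 with Per3, -0.34 with Nr1d2 and -0.27 with Per2, each called, and -0.12 with Arntl and -0.15 with Npas2, neither called. On plates 1, 2 and 3 it was -0.71, -0.44 and -0.50 for Hlf and -0.51, -0.49 and -0.64 for Clock, but -0.55, 0.056 and -0.22 for Per2. For Per1 it was -0.67, -0.16 and -0.45, for Per3 -0.46, -0.24 and -0.40, and for Nr1d2 -0.37, -0.20 and -0.41, each also smallest in size on plate 2. All 8 hair genes were called lower with higher Hlf, and all 8 with higher Clock, where 8.20% and 4.91% of all genes were called in that direction. With Arntl limma called 0 of the 8 hair genes (1 at an unadjusted p under 0.05), where 0.218% of all genes were called lower. Arntl was called with the score of 4 T lymphocyte genes (r = -0.33, rho = -0.32, permutation p = 5e-05 and 9e-05, adjusted p = 5.5e-04), whose mean level of 3.49 lay near the arrays' lower quartile. Limma called 0 of these 4 genes with Arntl, 3 of them at an unadjusted p under 0.05, and Nr1d2 had r = 0.21 with the same score (permutation p = 0.010, adjusted p = 0.050, just over the threshold). Basal keratinocyte genes went with Per3 (0.32) and Hlf (0.25).

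**Figure D5:**
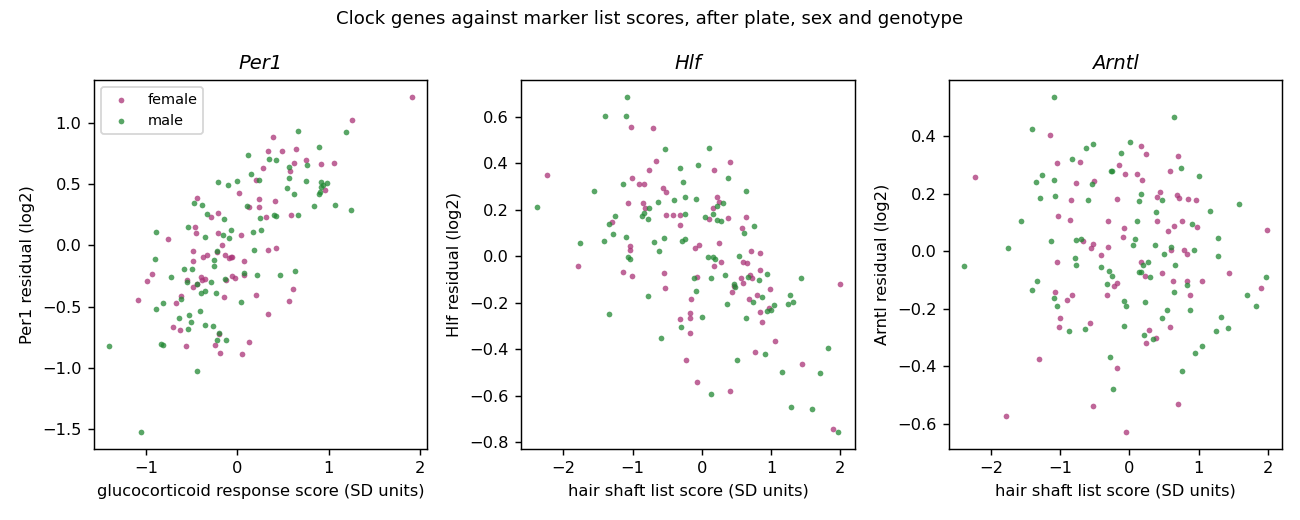
Residual log2 level (y axis) of Per1 against the score of 9 glucocorticoid response genes, and of Hlf and Arntl against the score of 8 hair shaft genes (x axes, SD units), after plate, sex and genotype; each point is a mouse, coloured by sex. Per1 rises along its score (r = 0.69), Hlf falls along the hair score (r = -0.57), and no relation of Arntl with the hair score was called.

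With scores of muscle, adipocyte, fibroblast and hair genes as covariates, 16 of the 28 pairs of clock genes were called, 15 of them also called without. Arntl with Npas2 was then 0.63, Per1 with Per2 0.73, Per3 with Nr1d2 0.59, Per3 with Hlf 0.44 and Per1 with Hlf 0.39. The negative values became larger in size: Arntl with Per3 -0.38, Arntl with Nr1d2 -0.40, Npas2 with Per3 -0.46 and Npas2 with Per2 -0.30.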

How the data were processed

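The submitters' series table holds 1 log2 expression value per probe set and array, normalized with RMA by the authors, per the submitters' processing notes; the array's background and summarisation settings were not found in the labels or the file header. Of 35556 rows, 171 were empty. Probe sets were named through GEO's platform annotation (21201 with 1 symbol, 1881 with several, 12303 with none; 21168 also matched RefSeq by gene ID), and a gene took its probe set with the highest mean. Nr1d2 has a second, dim probe set (mean 2.45).

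Differences and slopes were fitted with limma 3.58.1 (R 4.3.3; lmFit, eBayes with trend; plate, sex and genotype as terms), with Benjamini-Hochberg adjustment over all genes. Correlations used residuals of those terms, with two-sided permutation tests of 100000 draws (numpy 2.4.6). Scripts were tested on simulated data: of 100 genes each changed by 0.2 and 0.4 log2, 74 and 95 were called for genotype and 83 and 98 for sex. Arntl slopes of 0.2 and 0.4 SD were called in 7 and 86 of 100. These counts do not give the sensitivity for Per1 and Per2. Their residual SDs were 0.51 and 0.54, beside a median of 0.22 over all genes, and recovery at such a spread was not tested separately. The number of arrays limits the precision.

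The genes and lists were chosen with earlier results of these data known. The text names all measured members, Cry1, Cry2, Tef, Nfil3, Bhlhe41 and Ciart, up to 5 called genes of the other clock lists per comparison, the 8 genes most like and most unlike Arntl, and 3 for each other member. Alternatives covered scaling, arrays labelled outlier, low genes, probe set choice, covariates, sexes, genotype and plates. Nothing says whether mice share litters. Genotypes are those of the labels; no check of them by the Hras transcript is given.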

Additional observations from a re-analysis of the deposited data

How the results depend on the processing

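The count of clock genes called was 0 for genotype and plate under every alternative run. The interaction tests were rerun only with arrays centred on their medians, and the count was 0 there too. For sex it was 1 (Hlf) except 0 on plate 1 alone and on plate 3 alone. With Arntl it was 3 in the main fit. It was 1 on each plate alone, among males alone and among differences of mice next in number, and below 3 among females alone, as given above. The correlations themselves were smaller in size in some of these (Arntl with Nr1d2 -0.13 in males and -0.16 among those differences). All genes called with Arntl were 175, but 1220 with arrays centred on their medians (where 4 clock genes were called), 353 with both outlier-labelled arrays, 314 in WT mice, 288 among brighter genes, 1 to 22 on single plates and 2 or 3 in a single sex; for sex they were 680, and 52 and 72 on plates 1 and 2 alone. For genotype, 21 became 0 on plates 1 and 3 and in males, and 10 in females; for plate, 4 became 2 among brighter genes. Called pairs numbered 17, and 11 in females, 7, 8 and 11 on plates 1, 2 and 3, and 5 among neighbour differences. Clock with Npas2 turned to -0.0077 on plate 3, Clock with Hlf to -0.036 with marker scores, and the neighbour correlation of Per3 to -0.026 on plate 1; the cause was not tested. Neighbour correlations called numbered 4, but 0 on plate 1 and 2 on plate 3, and all genes called fell from 1716 to 966 with marker scores and to 51, 251 and 41 on single plates. Relations with marker lists called were 23, and 11, 8 and 15 on single plates.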

Other observations

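The 2 arrays that carry the submitters' outlier label, both from WT males of plate 2, read 6.75 and 7.67 for Arntl, 5.35 and 6.06 for Per2, 6.99 and 7.57 for Per1, and 7.48 and 8.00 for Hlf, all inside the range of the other 151 mice. Fkbp5, a glucocorticoid receptor target, ran from 5.66 to 8.12 over those mice, and Zbtb16 from 5.41 to 8.27. Of the immediate early genes, Fosb ran from 4.79 to 9.78. No clock gene had an outlying mouse by Dixon's test in the 16 combinations of a gene with the HET mice of plate 1 or plate 2.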
